A study of Homo sapiens with 72 samples.

Results

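The mRNAs described here encode 9 enzymes and enzyme subunits that modify the wobble uridine of tRNAs: CTU1 and CTU2, URM1, MOCS3, and the Elongator subunits ELP2, ELP3, ELP4, ELP5 and ELP6. They were chosen by symbol, and all 9 were found among the 44659 gene names of the count table. The data were 72 QuantSeq libraries, a method that reads the 3′ end of polyadenylated RNA, made from cytoplasmic RNA of A375, an established human melanoma cell line. All libraries thus came from a single line. In the first experiment, cells received a pool of 2 siRNAs against CTU2 (siCTU2) or a control siRNA (siGL2) for 42 h. In the second, cells were kept for 18 h in medium that lacked glutamine (mQ) or in medium that held 2 mM glutamine (pQ). All 4 conditions were then treated with 25 µM triptolide, which blocks transcription, either alone (T arm) or with 100 µg/ml cycloheximide, which blocks translation (TCHX arm), and collected at 0, 3 and 5 h. Each of the 24 groups had 3 replicates. No source stated that replicates were separate cultures, so p-values measure the spread between these libraries, which may be technical.

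The wobble uridine is the first base of the tRNA anticodon, the base that reads the last base of a codon. In tRNAs for lysine, glutamate and glutamine it carries a sulfur atom and a carbon side chain, and both help the tRNA to read codons that end in A. CTU1 and CTU2 form the enzyme that attaches the sulfur, which reaches them from MOCS3 through the small carrier protein URM1, while the Elongator complex begins the side chain.

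Libraries held 5987692 to 15534331 counts. Of the melanocyte lineage markers, SOX10 (median 243 CPM, counts scaled to a common library total), MITF (150 CPM), S100B (341 CPM), DCT (57.3 CPM) and PMEL (4.45 CPM) were present, and MLANA, TYR and TYRP1 were near 0 (medians 0.20, 0.21 and 0.63 CPM). Markers of other cell types were near 0 (median 0 CPM for PECAM1, EPCAM and KRT5 and 0.178 CPM for COL1A1), except that the leukocyte gene PTPRC reached 31.1 to 32.6 CPM in 3 libraries and at most 0.759 CPM in the other 69. These PTPRC libraries were all replicate 3, namely pQ in the TCHX arm at 0 h, mQ in the T arm at 5 h and the one labelled siCTU2 TCHX 5 h. The library labelled siCTU2 TCHX 5 h replicate 3 also held 117 counts of CTU2 (10.4 CPM), against 2 counts in each of the other replicates of its group, and therefore went against its label. In addition, all 8 libraries of replicate 3 at 5 h stood apart, with a median correlation with their own group of 0.910 to 0.937, against 0.942 to 0.990 in the other 64 (log2(CPM + 1), across genes). Levels at 0 h in the T arm came from none of these libraries. The changes over time rest on 0 h and 3 h libraries, but the fits also used the 5 h libraries, so values without the libraries named here are given where they matter.

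The siRNA sequences are shown because they define the depleted enzyme and the stretch through which the guide strand could pair with other mRNAs. The sense strands are given, and capitals mark the bases that pair with positions 2 to 8 of the guide, its seed.
siCTU2#1: cuaucaagcucAUGACCAa
siCTU2#2: gcgugaacaugAAGGACUu
Both sequences matched the CTU2 transcript at 1 place. The site of siCTU2#1 lay at chr16:88713389-88713407 (plus strand, GRCh38) in coding exon 8 of 15, and the site of siCTU2#2 at chr16:88714907-88714925 in coding exon 13 of 15. These sites were 860 and 275 bases from the 3′ end of the transcript, where QuantSeq reads start. Matches to either seed (AUGACCA or AAGGACU in RNA letters, sense strand) were looked for in the 3′ UTRs of the members. ELP2 had 2 matches to siCTU2#2 and ELP4 had 1 to siCTU2#1, and CTU1, CTU2, URM1, MOCS3, ELP3, ELP5 and ELP6 had 0. Of 19677 human 3′ UTRs of any length, 18.4% held at least 1 match. A match is a run of letters and not a shown site of action.

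CTU2 itself was examined first. At 0 h in the T arm it reached 2.95, 1.01 and 1.32 CPM in the 3 siCTU2 libraries (28, 11 and 17 counts), and 21.1, 22.0 and 24.2 CPM in the siGL2 libraries. Every siCTU2 library was far below every siGL2 library, with a log2 fold change of -3.71 (SE 0.28, 95% interval -4.29 to -3.13, edgeR adjusted p = 9.16e-09). CTU2 lies at chr16:88706483-88715396 on the plus strand (GRCh38), and its 3′ end overlaps that of PIEZO1 on the other strand by 59 bp. The level of PIEZO1 at 0 h was 74.3 ± 5.49 CPM in siCTU2 and 43.8 ± 6.57 CPM in siGL2 cells (SD, n = 3). The strand setting of the authors' counting was not given in the sources used here, and whether PIEZO1 reads entered the CTU2 count was not tested.

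The partners of CTU2 were then compared between siCTU2 and siGL2 cells at 0 h. Apart from CTU2, the transcript of its own partner CTU1 was higher, and those of the sulfur carrier URM1 and of the Elongator subunit ELP6 were lower. Of the 8 members that passed the filter on low counts, 1 was called higher and 3 lower, against 17.8% of all 12292 genes tested higher and 18.2% lower. The 3 lower members include CTU2, the target of the siRNAs, whose fall was set by the design and is no response of a partner. The median log2 fold change was 0.03 over the 8 members and 0.00 over all genes. In bulk samples, fewer cells with a transcript and less of it per cell cannot be told apart.

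CTU1, the catalytic subunit of the thiolase, reached 25.2, 23.8 and 23.4 CPM in siCTU2 cells and 15.7, 15.8 and 16.9 CPM in siGL2 cells. The groups did not overlap, and CTU1 rose by 0.58 on the log2 scale (SE 0.14, 95% interval 0.28 to 0.87, edgeR adjusted p = 0.00326). The rise was 0.89 in the TCHX arm at 0 h (edgeR adjusted p = 6.06e-05). In a fit of all 72 libraries it did not pass the threshold (edgeR adjusted p = 0.276).

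URM1 receives sulfur from MOCS3 and hands it to the thiolase. It reached 104, 107 and 103 CPM in siCTU2 cells and 187, 172 and 171 CPM in siGL2 cells, so the highest siCTU2 library lay well below the lowest siGL2 library. The log2 fold change was -0.76 (SE 0.08, 95% interval -0.92 to -0.60, edgeR adjusted p = 3.99e-07), and it was -0.79 in the TCHX arm at 0 h. Relative to its mean, URM1 had the smallest SD of the members in siCTU2 cells at 0 h in the T arm, at 105 ± 2.09 CPM (SD, n = 3).

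MOCS3, which activates URM1 and loads it with sulfur, reached 19.1, 15.1 and 18.0 CPM in siCTU2 cells and 12.9, 12.1 and 14.3 CPM in siGL2 cells. All siCTU2 libraries were above all siGL2 libraries, but by less than 1 CPM between the nearest. The log2 fold change of 0.40 did not pass the threshold (SE 0.17, 95% interval 0.06 to 0.75, edgeR adjusted p = 0.0648).

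Among the Elongator subunits, ELP6, which with ELP4 and ELP5 forms the ring that binds tRNA, was lower in siCTU2 cells. Its levels were 53.3, 50.6 and 62.2 CPM, against 76.1, 75.7 and 70.1 CPM in siGL2 cells. The groups did not overlap, and ELP6 fell by 0.42 on the log2 scale (SE 0.10, 95% interval -0.63 to -0.21, edgeR adjusted p = 0.00316). In the TCHX arm it was -0.45, and in the fit of all 72 libraries it did not pass (edgeR adjusted p = 0.0764).

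ELP2, a scaffold of the complex, reached 83.8, 68.4 and 76.3 CPM in siCTU2 and 68.0, 62.1 and 61.9 CPM in siGL2 cells. These groups lay next to each other without overlap, and the log2 fold change of 0.25 did not pass (SE 0.10, 95% interval 0.04 to 0.45, edgeR adjusted p = 0.0577). ELP3, the catalytic subunit, overlapped between the groups at 27.8 to 32.0 and 26.9 to 31.7 CPM, with a log2 fold change of 0.00 (SE 0.13, 95% interval -0.27 to 0.26). ELP4, another ring subunit, also overlapped, at 6.84 to 7.69 and 4.41 to 8.20 CPM, with a log2 fold change of 0.06 and a wide interval of -0.48 to 0.61. In all, the groups did not overlap for 6 of the 8 members (CTU1, MOCS3 and ELP2 higher, CTU2, URM1 and ELP6 lower), against 47.0% of all genes tested. These 6 include the siRNA target CTU2.

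ELP5, the remaining ring subunit, was not measured in a usable way. Its count was 0 to 38 per library with a median of 2.5, and 7 libraries held 0. At 0 h it had 2, 3 and 22 counts in siCTU2, 1 in each siGL2, 2, 1 and 2 in mQ and 2, 38 and 4 in pQ libraries. ELP5 shares its locus (chr17:7251416-7259940, plus strand, GRCh38) with CTDNEP1, CLDN7 and another coding gene on the opposite strand, and the table held a second copy of its name. Whether reads of ELP5 were lost to these was not tested. ELP5 did not pass the filter in any comparison below, except for the cycloheximide comparisons that included siCTU2 cells.

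**Figure D1:**
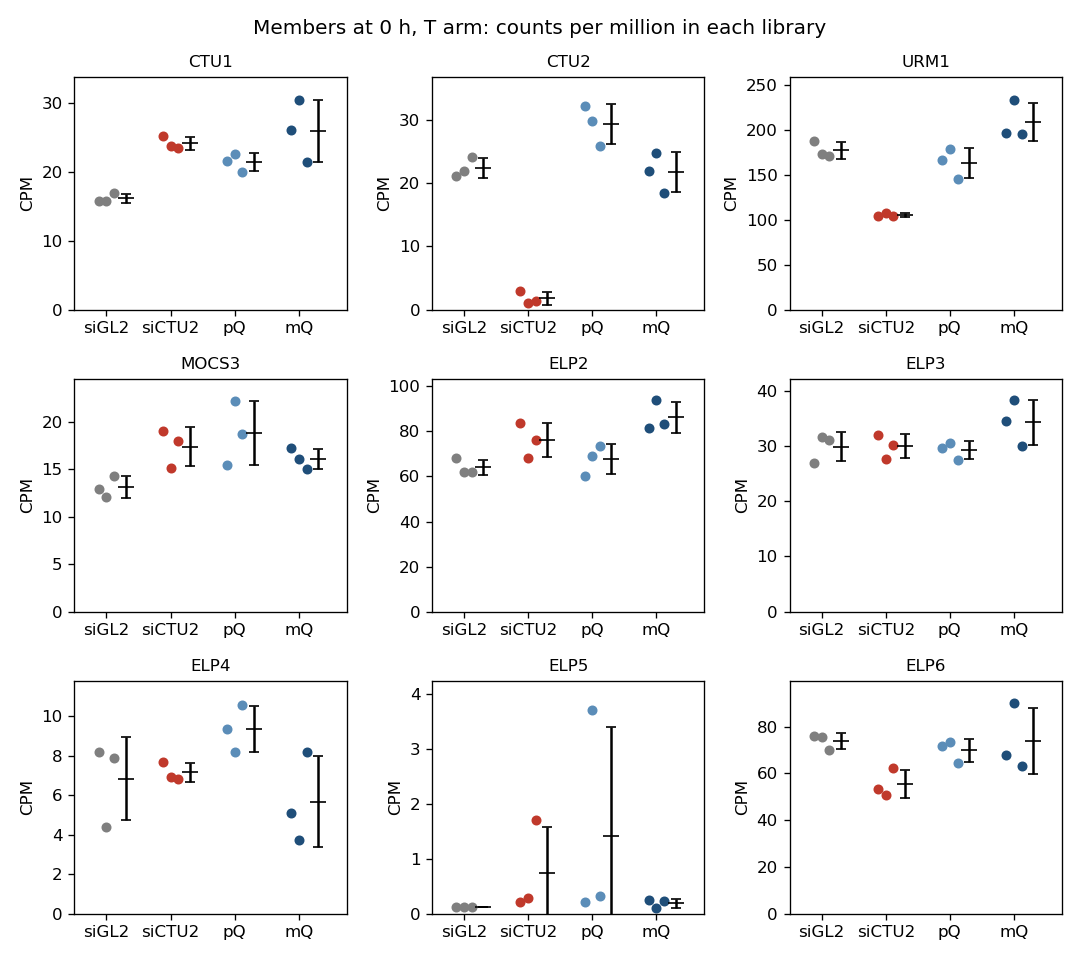
Level of each of the 9 mRNAs (CPM) at 0 h in the T arm, with 1 panel per gene, 1 point per library and the mean with SD (n = 3) beside the points, for siGL2, siCTU2, pQ and mQ cells. CTU2 and URM1 were lower and CTU1 was higher in siCTU2 than in siGL2 libraries without overlap, and ELP5 stayed near 0 in most libraries.

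Next, cells without glutamine were compared with cells in control medium at 0 h. The transcripts of URM1 and ELP2 were higher without glutamine, and no member was called lower. The 2 members called were out of 8 tested, against 24.8% of 12374 genes, a share like that of all genes. The median log2 fold change was 0.21 over the members and 0.01 over all genes.

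URM1 reached 196, 233 and 195 CPM in mQ and 166, 178 and 145 CPM in pQ cells. The groups did not overlap, and URM1 rose by 0.41 (log2, SE 0.12, 95% interval 0.15 to 0.66, edgeR adjusted p = 0.0254). ELP2 reached 81.4, 93.9 and 83.4 CPM in mQ and 60.3, 68.9 and 73.5 CPM in pQ cells. These groups did not overlap either, and ELP2 rose by 0.41 (log2, SE 0.12, edgeR adjusted p = 0.0268). Both calls were lost without pQ replicate 1 or without pQ replicate 2, and in the TCHX arm at 0 h, where URM1 was at 0.23 (edgeR adjusted p = 0.181) and ELP2 at 0.29 (edgeR adjusted p = 0.202). Without the PTPRC library of that arm, ELP2 passed (0.39, edgeR adjusted p = 0.0201), CTU1 passed as well (0.57, edgeR adjusted p = 0.0236) and URM1 did not (0.23, edgeR adjusted p = 0.0815).

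In the thiolase, CTU2 reached 22.0, 24.8 and 18.5 CPM in mQ and 32.2, 29.9 and 26.0 CPM in pQ cells. All mQ libraries were below all pQ libraries, and the log2 fold change of -0.37 did not pass (95% interval -0.72 to -0.02, edgeR adjusted p = 0.112). CTU1 reached 26.0, 30.4 and 21.4 CPM in mQ and 21.6, 22.6 and 19.95 CPM in pQ cells. Here the groups overlapped (log2 fold change 0.34, 95% interval -0.02 to 0.70, edgeR adjusted p = 0.159).

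ELP4 was measured at 5.07, 3.71 and 8.21 CPM in mQ and at 9.34, 8.21 and 10.5 CPM in pQ cells. The highest mQ library and the lowest pQ library were both at 8.21 CPM when rounded, and the log2 fold change of -0.68 had a wide interval (-1.31 to -0.05, edgeR adjusted p = 0.108). MOCS3 (log2 fold change -0.17, 95% interval -0.56 to 0.22), ELP3 (0.29, -0.02 to 0.59) and ELP6 (0.14, -0.17 to 0.44) overlapped between the groups. The groups did not overlap for 4 of the 8 members (URM1 and ELP2 higher, CTU2 and ELP4 lower), against 42.8% of all genes tested.

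The effect of CTU2 depletion was also set against that of glutamine removal in a single test over the 12 libraries at 0 h. The difference was called for 3 of 8 members, all in the lower direction, against 16.1% of 12950 genes. Among the 3 was CTU2, the target of the siRNAs. CTU2 differed by -3.34 (log2, SE 0.33, edgeR adjusted p = 5.05e-07). URM1 differed by -1.17 (SE 0.14, edgeR adjusted p = 4.99e-06), since it was lower in siCTU2 than in siGL2 cells and higher in mQ than in pQ cells. ELP6 differed by -0.56 (SE 0.18, edgeR adjusted p = 0.0230), and this call was lost in the TCHX arm and when replicate 1 or replicate 2 was left out. For MOCS3 (0.57, SE 0.24), ELP4 (0.74, SE 0.40), CTU1 (0.24, SE 0.21), ELP2 (-0.16, SE 0.16) and ELP3 (-0.29, SE 0.18) the difference did not pass. The remaining calls on CTU2 and URM1 held in the TCHX arm (-3.78 and -1.01).

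**Figure D2:**
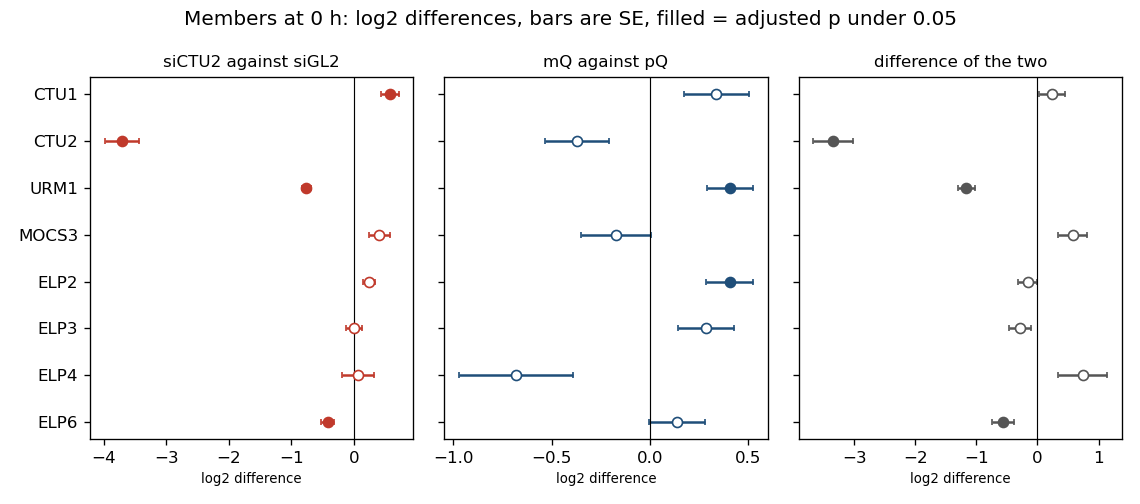
Log2 difference at 0 h in the T arm for 8 members in 3 panels: siCTU2 against siGL2, mQ against pQ, and the difference between these effects. Bars are the SE and filled points have an edgeR adjusted p under 0.05, as for URM1 at -0.76, 0.41 and -1.17.

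The other genes of the wobble uridine pathway were listed by role, and 10 of 12 passed the filter. In siCTU2 cells 2 were higher and 5 lower than in siGL2 cells, with a median log2 fold change of -0.41. Of all 12292 genes tested, 17.8% were called higher and 18.2% lower. Among the lower genes were LYRM4 (-1.25), which stabilises the cysteine desulfurase NFS1, the mitochondrial thiolase TRMU (-0.85), the methyltransferase ALKBH8 that finishes the side chain (-0.53) and the sulfurtransferase MPST (-0.53). The 2 higher genes were the Elongator cofactor DPH3 (0.66) and NFS1 (0.49), which frees the sulfur from cysteine. In mQ cells only MTO1, a mitochondrial wobble uridine enzyme, was higher in this list (0.78), while MPST (-0.71) and TRMT112, the partner of ALKBH8 (-0.28), were lower, with a median of -0.23. Between mQ and pQ cells 24.8% of all genes were called in either direction.

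Of 22 enzymes that modify other positions or other bases of the anticodon loop, 21 were tested. In siCTU2 cells 1 was higher (TRMT5, 0.42) and 6 were lower, with a median of -0.15, against 17.8% of all genes higher and 18.2% lower. TRIT1 (-0.88) and CDKAL1 (-0.75), which modify the base next to the anticodon, were the lowest. In mQ cells 1 was higher (TYW1, 0.36) and 7 were lower, with a median of -0.06, against 24.8% of all genes called in either direction.

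The stability of the members' mRNAs was measured as the change from 0 h to 3 h of triptolide in the T arm. Library totals do not follow the loss of mRNA after a transcription block. Counts were therefore scaled to genes whose share of the total rose in both arms of every replicate. These were 197 genes in the siRNA and 81 in the medium experiment, with no member among them. All changes are thus relative to those stable genes. Among the members called, MOCS3 had the largest fall in all 4 conditions, CTU1 followed outside siCTU2 cells, and ELP2 was the Elongator transcript called in every condition. Members called lower were 2 of 8 in siCTU2, 3 in siGL2, 6 in mQ and 5 in pQ cells, and none was called higher. Of all genes 26.6%, 27.9%, 56.7% and 54.1% were called lower. The median change over the members was -0.54, -0.40, -0.64 and -0.63 (log2) and over all tested genes -0.55, -0.47, -0.71 and -0.69, so the medians were close in each condition. As a check of the block, the short-lived mRNAs JUN, FOS, MYC, IER2 and EGR1 fell in all 4 conditions (5 of 5).

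At 3 h, MOCS3 retained 9.21, 4.70 and 3.61% of its 0 h level in siGL2 cells, where 15, 7 and 5 counts were left. In siCTU2 cells it retained 31.0, 26.3 and 22.9% (84, 65 and 79 counts). In the medium experiment it retained 6.81, 2.53 and 5.10% in mQ and 19.96, 17.0 and 14.1% in pQ cells. Every library was thus at 31.0% or below. All siGL2 libraries were below all siCTU2 libraries, and all mQ libraries were below all pQ libraries. At 0 h the CPM of 47.0% and 42.8% of all genes did not overlap in these comparisons, and the share at 3 h was not counted.

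The log2 change of MOCS3 was -1.90 (SE 0.48, edgeR adjusted p = 0.0158) in siCTU2, -4.06 (SE 0.40, edgeR adjusted p = 0.000128) in siGL2, -4.33 (SE 1.19, edgeR adjusted p = 0.0149) in mQ and -2.55 (SE 0.28, edgeR adjusted p = 0.000111) in pQ cells. These values lay at percentiles 5.58, 0.626, 0.955 and 3.51 of all tested genes. Without the PTPRC libraries they were -1.87, -4.01, -4.16 and -2.46, and all 4 remained past the threshold. Scaled by TMM, a method that centres the typical gene near 0, they were -1.34, -3.59, -3.56 and -1.86, and only those in siGL2 and pQ cells passed. The calls in siCTU2 and mQ cells were also lost without replicate 1 or without replicate 2.

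At 5 h MOCS3 was at 6.46, 2.96 and 2.94% in siGL2, 0.860, 12.7 and 6.25% in siCTU2 and 2.30, 2.70 and 4.28% in pQ cells. In mQ cells it was at 0, 1.92 and 41.7%, where the last value is the PTPRC library (133 counts, against 0 and 4). With that library MOCS3 did not pass at 5 h in mQ cells (-2.71, edgeR adjusted p = 0.0632), and without the PTPRC libraries it did (-6.45, edgeR adjusted p = 7.29e-07). With 0 and 4 counts left in the other libraries, the size of that fitted value is uncertain.

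CTU1 retained 48.3, 57.8 and 52.2% at 3 h in siGL2 cells and 76.0, 78.3 and 87.5% in siCTU2 cells. The siCTU2 libraries were all above the siGL2 libraries, and the share of all genes with such a gap at 3 h was not counted. In mQ cells CTU1 retained 32.2, 32.2 and 48.6% and in pQ cells 45.5, 53.9 and 57.2%, and these groups overlapped. The log2 change passed the threshold in siGL2 (-0.92, SE 0.24, edgeR adjusted p = 0.0169), mQ (-1.41, SE 0.33, edgeR adjusted p = 0.00906) and pQ cells (-0.94, SE 0.32, edgeR adjusted p = 0.0293) and not in siCTU2 cells (-0.31, SE 0.21, edgeR adjusted p = 0.265). With TMM it passed in none of them, and in siCTU2 cells its direction turned (0.25).

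CTU2 changed by 0.08 in siGL2, -0.31 in mQ and -0.43 in pQ cells (log2) and passed in none. In siCTU2 cells only 6 to 9 counts of CTU2 were left at 3 h, and its change of -1.90 did not pass (edgeR adjusted p = 0.0828). URM1 retained 89.2, 90.7 and 76.0% in siGL2 and 73.9, 78.4 and 64.4% in siCTU2 cells, and its log2 changes of -0.23 and -0.47 did not pass. In mQ cells URM1 passed at -0.49 (edgeR adjusted p = 0.0244), close to its -0.45 in pQ cells, which did not (edgeR adjusted p = 0.0905).

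The log2 change of ELP2 was -0.63 in siCTU2, -0.53 in siGL2, -0.62 in mQ and -0.71 in pQ cells. It retained 58.1 to 79.9% of its 0 h level over the 12 libraries, with overlap between the conditions of each experiment. Its siCTU2 (63.5 to 66.4%) and pQ libraries (58.5 to 62.3%) did not overlap, but they belong to separate experiments that were scaled to different stable genes. ELP3 changed by -0.61, -0.42, -0.67 and -0.55, and ELP6 by -0.45, -0.38, -0.82 and -0.41, and both were called only in mQ and pQ cells. ELP4 was called in none (-0.24, -0.13, 0.19 and -0.78), with retained shares that spread from 37.6 to 132%. Among all tested genes ELP2 lay at percentiles 41.7 to 58.8 and ELP3 at 44.1 to 67.1, while ELP6 lay at 41.2 to 61.0 and at 83.1 in pQ cells, and ELP4 at 83.9, 88.4 and 96.6 in siCTU2, siGL2 and mQ and at 41.6 in pQ cells. A high percentile means a smaller loss. With TMM the direction turned for URM1, ELP2 and ELP3 in mQ cells and for ELP3 and ELP6 in pQ cells. In pQ cells the calls on CTU1, ELP3 and ELP6 were lost without the PTPRC libraries, after which stable genes were chosen again.

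**Figure D3:**
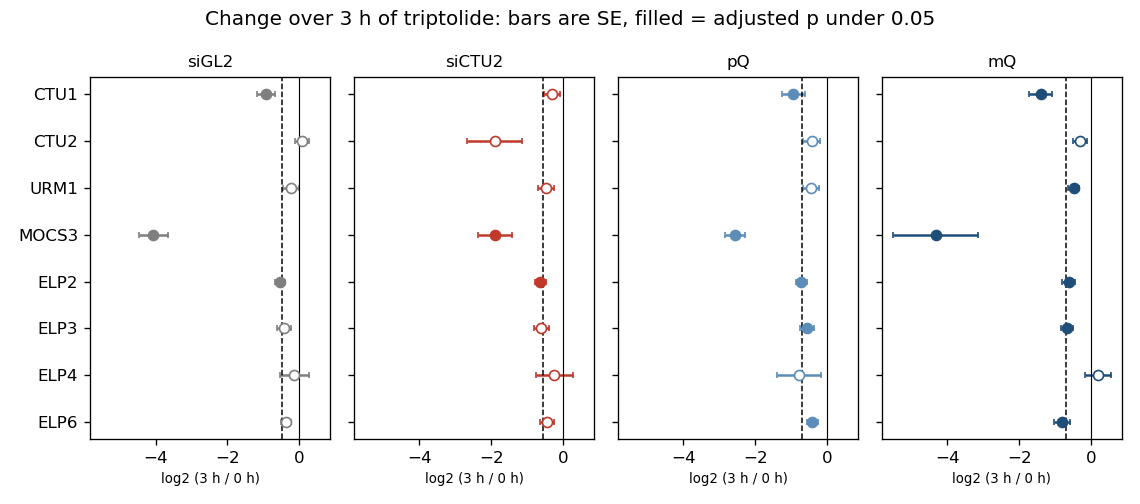
Log2 change from 0 h to 3 h of triptolide in the T arm for 8 members, with 1 panel per condition, bars for the SE, filled points for an edgeR adjusted p under 0.05 and a dashed line at the median of all tested genes (-0.55 in siCTU2, -0.47 in siGL2, -0.71 in mQ and -0.69 in pQ cells). MOCS3 had lower values than the median in every panel, at -1.90, -4.06, -4.33 and -2.55.

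In the lists of other enzymes, 1, 3, 6 and 6 of 10 tested genes of the rest of the pathway were called lower over 3 h in siCTU2, siGL2, mQ and pQ cells, with medians of -0.48, -0.43, -0.54 and -0.67. Of the 21 other anticodon loop enzymes 12, 11, 17 and 17 were called lower, with medians of -1.02, -0.88, -1.09 and -1.15. As given above, 26.6%, 27.9%, 56.7% and 54.1% of all genes were called lower, with medians of -0.55, -0.47, -0.71 and -0.69. The lowest of these were LCMT2 in siCTU2 (-3.65) and pQ cells (-2.77), ADAT3 in siGL2 (-2.30) and TRMT12 in mQ cells (-3.31), named after their values were seen. LCMT2 was lower than MOCS3 in siCTU2 and pQ cells, so MOCS3 was not the only short-lived transcript among tRNA modifying enzymes.

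Cycloheximide was added to ask how far the loss of each mRNA needs translation. MOCS3 was the only member called at 3 h, in siCTU2, siGL2 and pQ cells. CTU1 was higher with cycloheximide in siGL2 cells without passing the threshold. In the TCHX arm MOCS3 retained, of the 0 h level of that arm, 35.9, 45.8 and 41.3% in siGL2 cells and 82.6, 92.8 and 77.5% in siCTU2 cells. It retained 62.8, 76.4 and 58.0% in mQ and 60.3, 56.4 and 59.5% in pQ cells. In each condition every TCHX library was above every T library, and the share of all genes for which this held was not counted.

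The log2 difference between the TCHX and the T arm at 3 h was 1.47 (SE 0.37, edgeR adjusted p = 0.0285) in siCTU2, 2.92 (SE 0.35, edgeR adjusted p = 0.000124) in siGL2 and 1.67 (SE 0.28, edgeR adjusted p = 0.00174) in pQ cells. In mQ cells it was 3.59 and did not pass (SE 0.86, edgeR adjusted p = 0.0582). It did pass there without the PTPRC libraries (3.57, edgeR adjusted p = 6.54e-07). Of all genes 4.31% (siCTU2), 3.44% (siGL2), 0.342% (mQ) and 2.81% (pQ) were called higher with cycloheximide, and the median difference was 0.13, 0.04, 0.16 and 0.05. The call in siCTU2 cells was lost once the 0 h difference between the arms was subtracted and without replicate 1 or replicate 2, and that in pQ cells without replicate 2.

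At 5 h MOCS3 in the TCHX arm had fallen further, to 10.0, 12.6 and 5.82% in siGL2, 68.3, 57.0 and 52.2% in siCTU2, 25.8, 24.4 and 29.7% in mQ and 22.1, 38.0 and 28.3% in pQ cells. The siCTU2 libraries were the highest at both times. The lowest of them at 5 h (52.2%) was replicate 3, in which CTU2 went against the label, and it and the other 2 lay above all other conditions. Only the siGL2 values share the scaling of the siCTU2 values, since the medium experiment was scaled to other stable genes. The pQ percentages of this arm are relative to a 0 h mean that includes a PTPRC library.

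**Figure D4:**
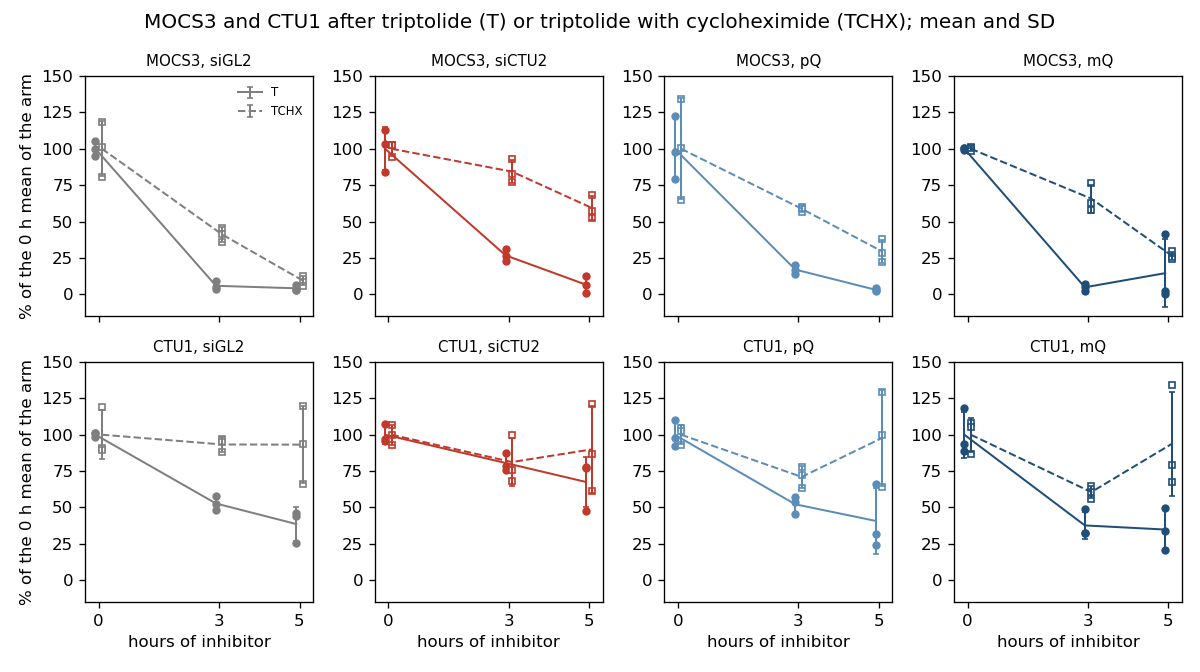
MOCS3 (top) and CTU1 (bottom) over 0, 3 and 5 h in the 4 conditions, as a percentage of the mean at 0 h of the same arm. Points are single libraries, lines join the means and bars are the SD (n = 3). Circles and solid lines stand for the T arm, and squares and dashed lines for the TCHX arm. MOCS3 fell to 26.7% or less at 3 h in the T arm and stood at 41.0 to 84.3% in the TCHX arm, and the wide bar of mQ cells at 5 h includes the PTPRC library.

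CTU1 differed between the arms at 3 h by 0.78 (log2, SE 0.23, edgeR adjusted p = 0.0915) in siGL2, 0.59 in mQ, 0.14 in siCTU2 and 0.07 in pQ cells, and passed in none. Averaged over 3 h and 5 h, it passed in siGL2 (0.99, edgeR adjusted p = 0.000426) and mQ cells (0.95, edgeR adjusted p = 0.0169). CTU2, URM1, ELP2, ELP3, ELP4 and ELP6 differed by at most 0.41 in size in any condition and none was called. ELP5 passed the filter only in siCTU2 cells, where its value of -2.91 rested on a few counts (edgeR adjusted p = 0.300). Of the rest of the pathway 0 of 10 genes were called in any condition, and of the other anticodon loop enzymes 4 were called in siCTU2 cells, 1 each in siGL2 and pQ cells and 0 in mQ cells. These were TRMT5, TRMT12, LCMT2 and ADAT3 in siCTU2, ADAT3 in siGL2 and LCMT2 in pQ cells. As given above, 4.31% (siCTU2), 3.44% (siGL2), 0.342% (mQ) and 2.81% (pQ) of all genes were called higher.

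**Figure D5:**
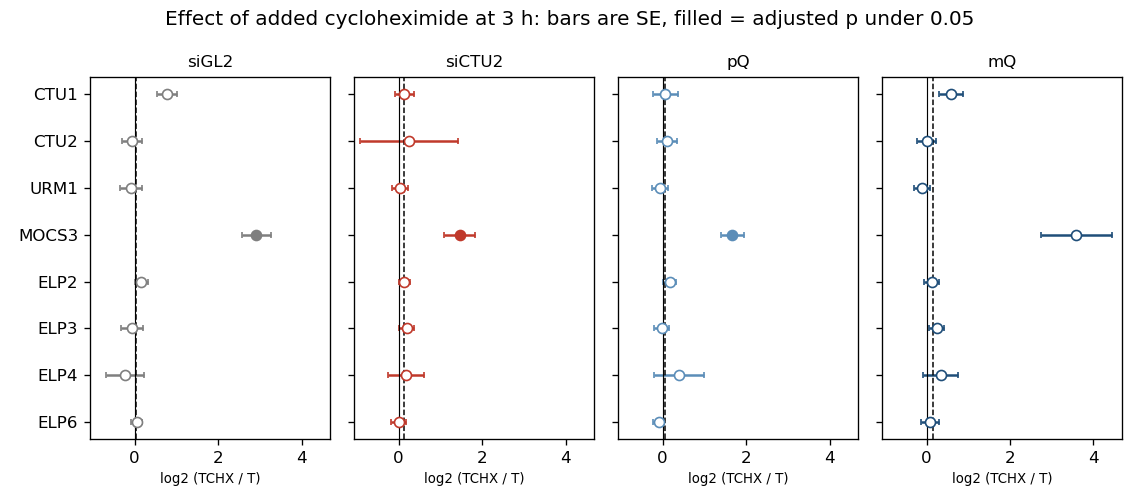
Log2 difference between the TCHX and the T arm at 3 h for the members other than ELP5, with 1 panel per condition, bars for the SE, filled points for an edgeR adjusted p under 0.05 and a dashed line at the median of all tested genes. ELP5, tested only in siCTU2 cells, is not shown. MOCS3 stood at 1.47 in siCTU2, 2.92 in siGL2, 3.59 in mQ and 1.67 in pQ cells, above the other members in each panel.

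The stability of the members was then compared between conditions in an interaction model. The loss of MOCS3 over 3 h was smaller in siCTU2 than in siGL2 cells by 2.16 (log2, SE 0.67, 95% interval 0.73 to 3.58), which did not pass after adjustment (edgeR adjusted p = 0.883). It passed the threshold in 0 of the alternatives run, with the lowest adjusted p of 0.0883 once the PTPRC libraries and all 5 h libraries of replicate 3 were left out (2.14). Between mQ and pQ cells the difference was -1.77 (SE 1.14, 95% interval -4.17 to 0.63). For CTU1 the differences were 0.61 (SE 0.31, siCTU2 against siGL2) and -0.47 (SE 0.48, mQ against pQ). No member was called in either experiment, and neither test had much to call, with 7 of 13324 genes (0.0525%) and 0 of 13273 past the threshold in edgeR and 400 and 238 at an unadjusted p under 0.05. With the libraries above left out, CTU2 was the 1 member called (-1.94, edgeR adjusted p = 0.0373), from the 6 to 9 counts left in siCTU2 cells.

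The effect of cycloheximide on MOCS3 at 3 h was smaller in siCTU2 than in siGL2 cells by -1.45 (log2, SE 0.54, 95% interval -2.55 to -0.34) and larger in mQ than in pQ cells by 1.91 (SE 0.88, 95% interval 0.12 to 3.70). Neither passed after adjustment in edgeR (adjusted p = 1.00 for both), and 0 genes were called in either test, with 325 and 259 at an unadjusted p under 0.05. Averaged over 3 h and 5 h the direction turned in both experiments (0.04 and -0.31). Without the PTPRC libraries it was 0.07 in the siRNA experiment, and in the medium experiment it did not turn (1.59, edgeR adjusted p = 0.0549).

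The study's index of translation-dependent decay (TDD) is the amount kept by cycloheximide, TCHX minus T at the same time, as a share of the 0 h level. For MOCS3 it was 0.493 ± 0.0375 in siCTU2 (range 0.455 to 0.530) and 0.220 ± 0.0624 in siGL2 cells (range 0.152 to 0.274; SD, n = 3), as means over 3 h and 5 h. All siCTU2 replicates were above all siGL2 replicates, a difference of 0.27 (exact permutation test over replicates, two-sided, p = 0.1, which is the lowest value 3 against 3 can give). Without replicate 3, which holds all PTPRC libraries, the difference was 0.32. In the linear model of all genes MOCS3 had an unadjusted p of 0.00768, as 1 of 8 members, against 8.16% of 12288 genes, and did not pass after adjustment, as no gene did. For CTU1 the index was lower in siCTU2 (0.183 ± 0.237) than in siGL2 cells (0.461 ± 0.170), with overlap and no call (exact permutation p = 0.2), and the difference shrank from -0.28 to -0.07 without replicate 3. In the medium experiment 0 of 8 members were called, against 4.79% of 12428 genes, and MOCS3 was at 0.340 ± 0.146 in mQ and 0.325 ± 0.0674 in pQ cells (exact permutation p = 1). There, ELP4 separated as MOCS3 did in the siRNA experiment, with mQ replicates at -0.131 to 0.089 and pQ replicates at 0.124 to 0.263 (exact permutation p = 0.1). How many of all genes had such a gap in the index was not counted in either experiment. The mQ values of MOCS3 ranged from 0.176 to 0.457, and without replicate 3, and with it the mQ T 5 h library that held PTPRC, the difference between mQ and pQ went from 0.01 to 0.15 and was not called.

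The members differed in sequence features that no rule used. MOCS3 has a single exon, as do 5.51% of 19677 human coding genes. The codons AAA, GAA and CAA, which the modified tRNAs read, made up 8.62 per 1000 codons in CTU1 (percentile 3.67), 19.4 in CTU2 (13.5), 29.7 in URM1, 33.8 in ELP6, 50.0 in ELP5, 60.9 in MOCS3, 70.8 in ELP4, 80.4 in ELP3 and 82.3 in ELP2 (68.3), against a median of 56.6. The thiolase subunits and URM1 thus had few of them and most Elongator subunits more than the median. The share of codons ending in G or C ran the other way, from 93.4% in CTU1 to 37.7% in ELP2.

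Over the 24 group means, URM1 was the member whose log2(CPM + 1) level was most like that of CTU2 (r = 0.917), ELP6 followed (r = 0.783), and CTU1 ran opposite (r = -0.587). These are descriptions over groups that share conditions, and the siCTU2 groups set most of the range. Among 9778 genes with enough counts, the gene most like CTU2 was TMED10 (r = 0.995), followed by PRELID3B (0.995) and RCN2 (0.992). The gene most like MOCS3 was ZIC2 (0.972), and that most like URM1 was NSG1 (0.972). For CTU1 it was TMEM223 (0.934), for ELP6 TMEM229B (0.946), for ELP3 STK24 (0.936), for ELP2 LINC02765 (0.900), for ELP4 EIF2D (0.861) and for ELP5 ASB3 (0.529).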

How the data were processed

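The deposited values were raw read counts per gene in 1 table of 72 libraries. Per the study's methods and processing notes, the authors trimmed reads with fastp 0.20.1, mapped them with HISAT2 2.2.1 to GRCh38.p13 and counted them with htseq-count (HTSeq 0.13.5). The strand setting of the counting was not given in the sources used here. Molecular identifiers were not mentioned, so PCR copies may be among the counts, and error models cover these reads only. Groups came from the sample titles, and 0 columns were left over.

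Counts were tested in R 4.3.3 with edgeR 4.0.16 (filterByExpr, quasi-likelihood F-test, Benjamini-Hochberg adjusted p under 0.05 over all genes tested). The 0 h tests used 6 libraries, or 12 for the difference of the effects, and TMM scaling. Changes over time used size factors from stable genes after the study's methods (CPM above 0.2 at 0 h, at least 1.1 times that at 3 or 5 h, and above 0.1 times the later CPM at 0 h, in both arms and conditions). Decay was fitted on 9 libraries per condition, cycloheximide effects on 18 and their differences on 18 or 36. The SE is the size of the log2 fold change divided by the root of F, and intervals are 95% intervals from the moderated t distribution. The TDD index was fitted by lm on condition, time and replicate for genes whose normalised 0 h count averaged 10 or more, and 3 h and 5 h values share their 0 h count. Scripts were tested on simulated data. For changes over time these simulations used TMM scaling and held no general fall after triptolide, so the scaling to stable genes was not tested.

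By rule, all 9 members were named in every comparison and the other enzymes were given by counts, with some of their single values not reported here. The members and lists were chosen with earlier results of these data known. Reads of a 3′ method do not allow levels to be compared between genes. Sequence features came from GENCODE v44 (GRCh38), and the siRNA sequences from the study's supplementary table. Deviations from the group means correlated more between libraries of the same replicate number than in any other pair. This held in every comparison checked except mQ against pQ at 0 h and the decay in mQ cells, and the main fits had no replicate block. Every same-number correlation was over 0.1 only in the cycloheximide comparison in mQ cells (0.123 to 0.307). A replicate block there gave 3.66 for MOCS3 (edgeR adjusted p = 0.0540) and changed no member's call. Over all genes, that fit called 138 genes with the block and 46 without it. The alternatives tried were other scalings (TMM, DESeq2 size factors), DESeq2 1.42.0, no filter, the TCHX arm, a fit of all libraries, 5 h in place of 3 h, stable genes at both times, each replicate left out, and, chosen after the data were seen, leaving out the libraries that stand apart.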

Additional observations from a re-analysis of the deposited data

Results flagged for a closer look

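For 3 members the effect of CTU2 depletion at 0 h differed from that of glutamine removal in a test of the difference itself. CTU2, the gene targeted by the siRNAs, differed by -3.34 on the log2 scale. URM1 differed by -1.17 (SE 0.14), with all siCTU2 libraries below all siGL2 libraries and all mQ libraries above all pQ libraries. ELP6 differed by -0.56 (SE 0.18, edgeR adjusted p = 0.0230), and this call was lost in the TCHX arm (edgeR adjusted p = 0.118) and without replicate 1 (0.148) or replicate 2 (0.192).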

How the results depend on the processing

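Counts of members called kept within 1.5 times their value in 119 alternatives and moved further in 57, and 488 values of single members kept their direction and side of the threshold, while 77 lost and 26 gained a call and 24 changed sign. At 0 h, a fit of all 72 libraries called 2 members in siCTU2 and 0 in mQ cells, and the TCHX arm called 0 in mQ cells. Leaving out 1 library gave 4 to 6 members in siCTU2 and 0 to 3 in mQ cells, and 2 to 3 for the difference of these effects. Decay depended on the scale by construction, since TMM moved the median of all genes to 0.01, 0.01, 0.06 and -0.01 (siCTU2, siGL2, mQ and pQ cells, in this order) and called 0, 1, 0 and 1 members. In siCTU2 cells (2 members called) stable genes at both times gave 6, DESeq2 4, 5 h 5, no filter 1, 5 h without the PTPRC libraries 4 and leaving out these and all 5 h libraries of replicate 3 gave 6. In siGL2 cells (3 called) the same settings gave 6 at both times, 5 at 5 h with or without the PTPRC libraries, and 5 without the 5 h libraries of replicate 3. In pQ cells (5 called) 2 were left without the PTPRC libraries and 3 without those and the 5 h libraries of replicate 3. Leaving out a replicate gave 0 to 4 members in siCTU2, 1 to 4 in siGL2, 0 to 5 in mQ and 1 to 5 in pQ cells. The cause of these changes was not tested beyond the fewer libraries.

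For the effect of cycloheximide, stable genes at both times gave 0 members in siCTU2 and 1 in mQ cells, subtracting the 0 h difference gave 0 in siCTU2 cells, the mean of 3 h and 5 h gave 2 in siCTU2, siGL2 and mQ cells, and that mean without the PTPRC libraries gave 3, 2 and 3. TMM gave 1 in mQ cells, DESeq2 gave 2 in siGL2 cells, and leaving out the PTPRC libraries gave 1 in mQ cells. Leaving out these and the 5 h libraries of replicate 3 gave 2 in siGL2 and 1 in mQ cells, and 1 (CTU2) for the difference in decay between siCTU2 and siGL2. Without 1 replicate the counts were 0 to 1 in siCTU2, 1 in siGL2, 0 to 2 in mQ and 0 to 1 in pQ cells. Scaling each arm of the TDD index to its own 0 h library called 3 members in each experiment, and the index called 0 to 2 (siRNA) or 0 to 1 (medium) without 1 replicate. DESeq2 gave no adjusted p for MOCS3 in 2 comparisons.

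Signs changed mostly in values near 0. ELP4 in siCTU2 cells at 0 h was -0.29 in the TCHX arm and -0.18 to 0.21 without 1 library. ELP3 was 0.0089 with no filter and -0.081 to 0.055 without 1 library. ELP6 in mQ cells was -0.036 in the TCHX arm and -0.032 to 0.23 without 1 library. With TMM, decay was 0.25 for CTU1 in siCTU2, 0.28, 0.15 and 0.089 for URM1, ELP2 and ELP3 in mQ and 0.15 and 0.28 for ELP3 and ELP6 in pQ cells. The effect of cycloheximide on CTU1 was -0.0089 with TMM and -0.12 without replicate 2 in siCTU2 cells, and -0.021 with stable genes at both times in pQ cells. For MOCS3, the difference in decay between mQ and pQ was 2.33 at 5 h (-1.47 there without the PTPRC libraries), the difference in the cycloheximide effect averaged over 3 h and 5 h was 0.035 (siRNA, or 0.075 without the PTPRC libraries) and -0.31 (medium, or 1.59 without the PTPRC libraries), and the TDD difference in the medium experiment was -0.013 with the own 0 h library and as low as -0.052 without a replicate.

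Outside the cycloheximide comparison in mQ cells, no comparison had every same-number correlation over 0.1. For siCTU2 against siGL2 at 0 h these correlations were 0.061 to 0.156, against -0.127 to 0.044 for other pairs. Same-number libraries were thus somewhat more alike there, and the main fits did not use this. A replicate block gave 6 members in siCTU2 cells at 0 h, adding MOCS3 (edgeR adjusted p = 0.0467) and ELP2 (edgeR adjusted p = 0.0246), and 7 in the decay of pQ cells, and elsewhere the count of members stayed as without the pairing. Depth limits ELP5 in every group, CTU2 in most siCTU2 libraries, and MOCS3 after triptolide in siGL2 and mQ cells, where the T libraries held 15 counts or fewer at 3 h.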
